A study of Drosophila melanogaster with 7 samples.

Results

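ASH2 peaks that were wide and lay apart from every other mark were examined in wing imaginal discs, larval epithelia from which the adult wing grows, taken from Drosophila melanogaster larvae of the third instar. Chromatin was immunoprecipitated and sequenced (ChIP-seq) in 7 libraries, of which 6 were for a target each and the last was input, and the labels name no strain, genotype or treatment. The targets were ASH2, H3K4me3, H3K27me3, H3K36me3 and RNA polymerase II phosphorylated at serine 5 (Ser5P) or serine 2 (Ser2P) of its C-terminal repeat. The antibody listed for the ASH2 library carries a catalogue number that belongs to an anti-HA reagent, and no HA-tagged strain appears in the labels, so all ASH2 values rest on the library's label. The authors deposited 1 list of peak positions per target (dm3). A peak was taken as mark-free when no peak of the other 5 lists lay within 500 bp of its edges, and as wide when it spanned 500 bp or more. Of the 31582 ASH2 peaks, 6154 were wide, and 1170 of these were mark-free. The wide peaks had 19.0% mark-free members, against 42.6% of all ASH2 peaks. Width and distance to the other lists chose these 1170 peaks and are given as description, with no test.

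ASH2 is a trithorax group protein and a subunit shared by the COMPASS-type enzymes, which methylate lysine 4 of histone H3. In Drosophila these enzymes are built around Set1, Trithorax or Trithorax-related. The trimethylated form, H3K4me3, marks active promoters, whereas the monomethylated form laid down by the Trithorax-related complex is typical of enhancers and was not among the targets here. Ser5P polymerase is typical of promoters, Ser2P polymerase and H3K36me3 of transcribed gene bodies, and H3K27me3 of chromatin under Polycomb group repression. H3K4me3, H3K36me3, Ser2P and Ser5P are called the active marks below.

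Each target had 1 library and no replicate, which left no test across samples, and none was made across peaks. The value on each of the 5 chromosome arms (2L, 2R, 3L, 3R and X) is given as the spread within the lists, and 95% intervals are exact and cover the counting of peaks only. The lists hold no reads, heights or p values, so depth is unknown, and a mark-free peak is one away from listed peaks, not one shown to lack the marks. The lists held 5868 H3K4me3, 22620 H3K27me3, 5760 H3K36me3, 4828 Ser2P and 3732 Ser5P peaks.

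The wider an ASH2 peak was, the less often it was mark-free. The mark-free share was 53.8% (95% interval 52.8 to 54.8, arms 51.3 to 57.3) of ASH2 peaks under 100 bp and 32.5% (30.6 to 34.4) of those from 400 to 499 bp. It was 29.6% (27.3 to 32.0, arms 27.1 to 32.6) from 500 to 599 bp, where 443 of 1496 peaks were mark-free. Above that it fell to 20.7% from 600 to 749 bp, 17.2% from 750 to 999 bp and 9.79% (8.16 to 11.6) from 1000 to 1499 bp. Of the 386 ASH2 peaks of 1500 bp or more, 25 were mark-free, a share of 6.48% (4.23 to 9.41, arms 4.71 to 7.92). There was no step in this decline at the 500 bp limit. The 500 bp are counted from both edges, so a wider peak needs a longer stretch clear of marks. Part of the decline is therefore built into the rule, and how much was not tested.

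**Figure D1:**
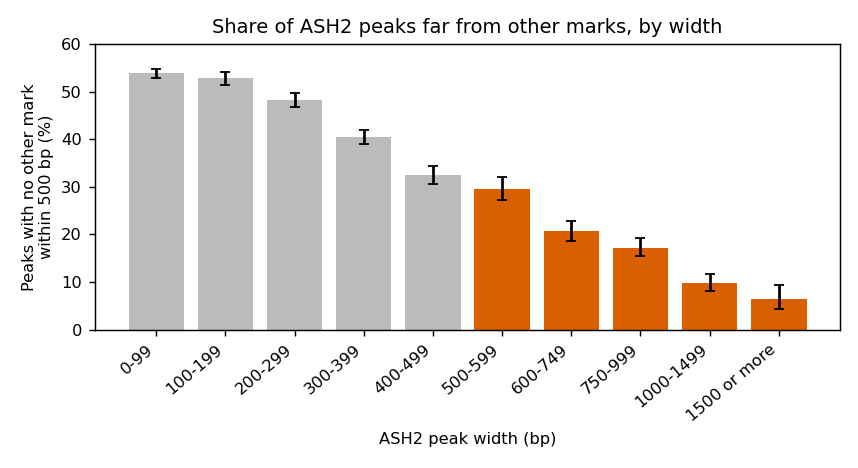
The bars give the share of ASH2 peaks in each width class (horizontal axis, bp) without a peak from the other lists within 500 bp (vertical axis, percent), with exact 95% intervals. Orange bars hold the 1170 wide mark-free peaks, and the share declines from 53.8% in the narrowest to 6.48% in the widest class.

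The mark-free wide peaks were accordingly narrower than the other 4984 wide ASH2 peaks. Their median width was 653 bp (interquartile range 560 to 817, arms 636 to 681), against 779 bp (620 to 1055, arms 756 to 796), and the ranges over the arms did not overlap. Part of this difference too is built into the rule. Among them 142 (12.1%) reached 1000 bp, compared with 28.9% of the other wide peaks. Wide ASH2 peaks that overlapped or touched an active mark and no H3K27me3 (3480 peaks) had a median of 820 bp. Those that overlapped or touched H3K27me3 and no active mark (729 peaks) had 661 bp, close to the mark-free ones.

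A few mark-free peaks were nonetheless among the broadest of the list. The widest lay on 3R from 21457912 to 21460534 (2623 bp), 1095 bp from the nearest H3K27me3 peak and 2916 bp from the nearest Ser5P peak. The second lay on X from 7838106 to 7840604 (2499 bp), 924 bp from H3K36me3 and 5278 bp from Ser5P. The next, on 2L from 427389 to 429455 (2067 bp), had Ser5P at 1651 bp and H3K4me3 at 1791 bp. These had different nearest marks, and 4 of the 10 widest were nearest to H3K27me3, which is near the share over all members (39.3%). The tenth, on 2L from 90485 to 92256, was 1772 bp wide.

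At the width limit, the 5 narrowest members spanned 500 to 501 bp and lay 537 to 7459 bp from a mark, and the 5 widest mark-free peaks just outside spanned 499 bp and lay 1136 to 5886 bp from one. At the distance limit, the 5 nearest members had a mark at 505 to 510 bp, and the 5 wide peaks just outside had one at 484 to 499 bp. Neither limit fell in a gap of the values.

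Most mark-free wide peaks lay within a few kilobases of a mark. The median distance to the nearest peak of any of the 5 lists was 1846 bp (interquartile range 1032 to 3732, arms 1706 to 2082). A mark was found between 500 and 1000 bp away for 288 of them (24.6%), between 1000 and 2000 bp for 331 and between 2000 and 5000 bp for 321. Another 230 (19.7%, 95% interval 17.4 to 22.1) had no mark within 5 kb, 60 of them at 10 to 20 kb and 22 at more than 20 kb from any mark. Width changed little with distance, with a median of 644 bp in the nearest and 598 bp in the farthest of these classes.

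H3K27me3 was the single mark most often nearest, and the active marks together were nearest more often. The nearest peak was H3K27me3 for 460 (39.3%, 95% interval 36.5 to 42.2, arms 32.7 to 46.6), Ser5P for 280 (23.9%, arms 18.4 to 26.5), H3K4me3 for 196 (16.8%), Ser2P for 129 (11.0%) and H3K36me3 for 105 (8.97%). The H3K27me3 list is also several times longer than each of the others. An active mark was nearest for 710 (60.7%, arms 53.4 to 67.3). By list, the median distance was 5788 bp to H3K27me3, 7686 bp to Ser5P, 9265 bp to H3K4me3, 9672 bp to Ser2P and 14484 bp to H3K36me3. H3K36me3, the mark of gene bodies, was thus the most distant of the 5 by the median.

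**Figure D2:**
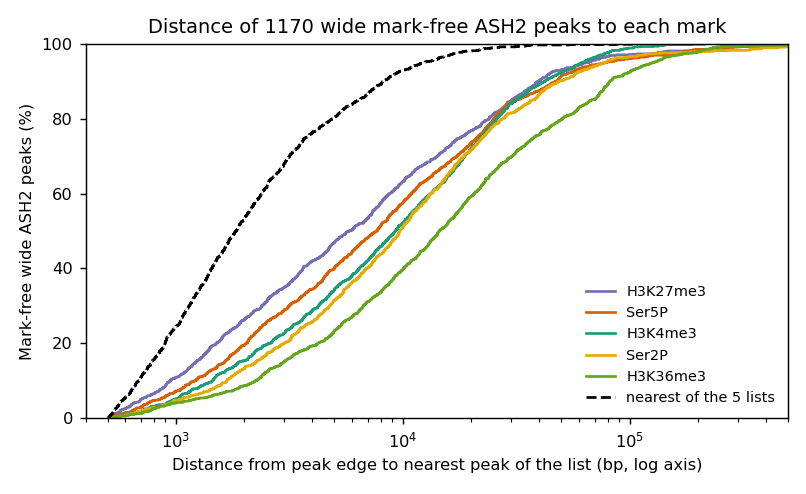
Each curve gives the cumulative share of the 1170 mark-free wide ASH2 peaks (vertical axis, percent) with a peak of the named list within the distance on the horizontal axis (bp, log axis). H3K27me3 (median 5788 bp) and Ser5P (7686 bp) run highest, H3K36me3 (14484 bp) lowest, and the dashed curve for the nearest of the 5 lists starts at the 500 bp limit.

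Set against the 12273 mark-free ASH2 peaks narrower than 500 bp, which were chosen by the same distance rule, the wide ones more often had polymerase or H3K4me3 nearby, and had H3K27me3 nearby about as often. Ser5P was found within 5 kb of 40.1% (arms 36.8 to 45.8) of the wide and 29.2% (arms 27.2 to 34.2) of the narrow peaks, and the ranges over the arms did not overlap. H3K4me3 was within 5 kb of 34.3% (arms 29.9 to 43.7) and 27.1% (24.2 to 33.1), with a higher share of the wide peaks on 5 of 5 arms although the ranges overlap, and Ser2P of 31.5% (27.5 to 36.8) and 25.1% (23.0 to 31.2). For H3K36me3 the shares were 23.4 and 22.1%, and for H3K27me3 46.9% (arms 37.7 to 53.6) and 47.3% (33.8 to 58.2), so these marks did not separate wide from narrow mark-free peaks. The difference in Ser5P and H3K4me3 followed width and did not begin at the 500 bp limit, since mark-free peaks of 400 to 499 bp had Ser5P within 5 kb at 40.7% and H3K4me3 at 35.4%, and members of 500 to 599 bp at 38.6 and 34.5%. Any active mark was within 5 kb of 59.0% of the wide and 48.2% of the narrow peaks. H3K27me3 was the nearest mark for 49.3% of the narrow peaks (arms 42.8 to 55.9), against 39.3% of the wide ones, whose range over the arms overlaps.

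The H3K4me3, Ser5P and H3K27me3 peaks nearest to the mark-free wide peaks were described by what they overlapped or touched. The 354 H3K4me3 peaks that were the nearest within 5 kb held Ser5P at 48.9%, against 37.3% of all H3K4me3 peaks, and ASH2 at 92.4%, against 85.5%. They held H3K36me3 at 20.3%, against 45.8% of all. The 402 nearest Ser5P peaks held H3K4me3 at 42.3%, against 57.9% of all Ser5P peaks, Ser2P at 28.9%, against 43.5%, and H3K36me3 at 8.46%, against 23.8%. ASH2 was found at 90.5% of them, against 87.7%. Because the rule keeps H3K4me3, H3K36me3 and Ser2P peaks more than 500 bp away from members, part of each of these deficits is built in. The H3K4me3 peaks nearest to narrow mark-free peaks, under the same limit, held H3K36me3 at 29.8% and Ser5P at 44.0%. The Ser5P peaks nearest to narrow mark-free peaks held H3K4me3 at 50.6%, Ser2P at 36.1% and H3K36me3 at 15.2%, each between the values for members and for all Ser5P peaks. The 493 H3K27me3 peaks nearest to members within 5 kb held ASH2 at 39.8%. The share was 25.4% of all H3K27me3 peaks and 26.0% of those nearest to narrow mark-free peaks.

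Mark-free stretches of DNA between listed peaks were then compared as places where such ASH2 peaks could occur. A stretch had to exceed 1500 bp to hold one, and there were 11120 of these, with 70.9 Mb of room once 500 bp was removed at each end. The 1169 members with a mark on both sides occupied 915 stretches (8.23%), of which 184 held 2 or more members and 1 held 7. The median stretch with a member was 9187 bp long (interquartile range 5086 to 18381).

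Members were denser between active marks than between H3K27me3 peaks. Stretches with an active mark on both sides held 468 members in 16.4 Mb of room, or 28.6 per Mb (arms 22.9 to 36.5). Those with H3K27me3 on both sides held 281 in 30.8 Mb, or 9.11 per Mb (arms 5.77 to 11.8), and mixed ones 420 in 23.7 Mb, or 17.7 per Mb. The density between active marks was 3.14 times that between H3K27me3 peaks, was higher on 5 of 5 arms, with ratios from 2.10 on 2L to 6.34 on X, and the ranges over the arms did not overlap. It was also higher in each class of stretch length, at 36.3 against 13.6 per Mb in stretches of 1500 to 5000 bp and 18.3 against 4.90 per Mb in those over 20000 bp. Narrow mark-free ASH2 peaks showed the same order with a smaller contrast, at 244 against 131 per Mb.

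**Figure D3:**
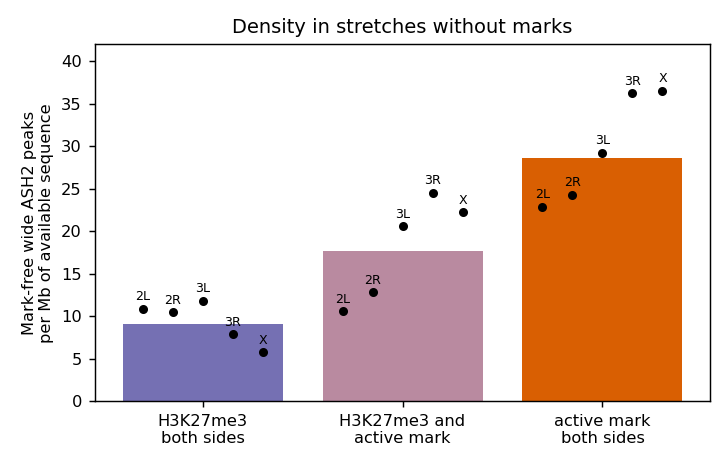
The bars give the number of mark-free wide ASH2 peaks per Mb of sequence available to them (vertical axis), by the marks at the ends of the stretch, and the points give the 5 chromosome arms. The density is 9.11 per Mb between H3K27me3 peaks and 28.6 per Mb between active marks, and every arm is higher in the last class than any arm in the first.

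The relation to Polycomb chromatin was described with H3K27me3 domains, in which H3K27me3 peaks no more than 5000 bp apart were joined. A lone H3K27me3 peak also counted as a domain, unless its start and end were equal. Of the members, 107 (9.15%, 95% interval 7.56 to 10.9, arms 7.81 to 11.2) lay in a domain, in the gaps between its listed peaks, and 57 (4.87%) in a domain longer than 20 kb. Among the other wide ASH2 peaks 27.5% (arms 20.4 to 33.3) lay in a domain, but 1126 of those 1370 overlapped or touched an H3K27me3 peak, which the rule forbids to members. Of the other wide peaks off H3K27me3 peaks, 6.32% lay in a domain, and of the narrow mark-free peaks 11.1%. The share in domains of the mark-free wide peaks lay between these values.

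Members inside domains were found in many places and few together. The 107 were spread over 89 domains, their median width was 626 bp, and they lay a median of 899 bp from H3K27me3 and 5454 bp from an active mark. Of the 4 domains that held 3 members, the longest lay on 3R from 15046866 to 15150511 (103646 bp) and held 60 ASH2 peaks, 20 of them wide, of which 3 were mark-free with widths of 513 to 599 bp. The next, on 3L from 15158503 to 15259472 (100970 bp), held 74 ASH2 peaks, also 20 of them wide. The third, on 3L from 23206200 to 23213993, was only 7794 bp long and held 7 wide ASH2 peaks among 8. Outside domains, the other 1063 members lay a median of 7308 bp from the edge of a domain of any length, lone peaks included. Of these, 440 lay within 5 kb, 83 farther than 50 kb and 33 farther than 100 kb. Domains longer than 20 kb were a median of 95984 bp from all members (arms 74962 to 104752). The median was 101931 bp for narrow mark-free peaks and 61454 bp for the other wide peaks, which may overlap H3K27me3.

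Mark-free wide peaks had close ASH2 neighbours, as other wide peaks did. The nearest other ASH2 peak of any width was a median of 461 bp away (95% interval 425 to 495, arms 397 to 527), and for the other wide peaks 432 bp (414 to 445, arms 408 to 450). For 78.2% of the members another ASH2 peak lay within 1 kb, and for 2.74% none lay within 5 kb, where the other wide peaks had 75.7 and 2.47%. The median number of other ASH2 peaks within 5 kb was 5 for members and 4 for the other wide and for the narrow mark-free peaks. Narrow mark-free peaks of all widths had a median of 739 bp to the nearest ASH2 peak (arms 642 to 796) and 8.97% with none within 5 kb. This too followed width, with 851 bp in those under 100 bp and 492 bp in those of 400 to 499 bp, near the 506 bp of members of 500 to 599 bp.

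Members of 1000 bp or more had a second wide ASH2 peak close by more often than narrower members did. The share with another ASH2 peak of 500 bp or more within 1 kb was 25.1% of 443 members from 500 to 599 bp and 23.4% of 325 from 600 to 749 bp. It was 30.0% of 260 from 750 to 999 bp, 41.9% of 117 from 1000 to 1499 bp and 44.0% of 25 from 1500 bp up. No interval or arm range was computed for these shares, and the last classes are small. In other wide peaks it stayed between 31.5 and 35.6% in all 5 width classes. Over all widths it was 27.8% of members (arms 22.3 to 34.7) and 33.5% of other wide peaks (31.2 to 36.1).

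Members also lay in runs. Joining members no more than 10 kb apart gave 851 groups, of which 633 were single peaks and 218 held 2 or more, together 537 members (45.9%, 95% interval 43.0 to 48.8, arms 41.1 to 52.6). Of the other wide peaks 78.6% had another of their group within 10 kb, but there are over 4 times as many of them. The 729 wide peaks in H3K27me3 without active marks are fewer than the members, and 54.7% (arms 43.5 to 62.4) of them had another within 10 kb, a range over the arms that overlaps that of the members. Still smaller groups had lower shares. These were 30.2% (arms 21.3 to 37.7) of the 397 wide peaks on both H3K27me3 and an active mark. For the 378 wide peaks with a mark within 500 bp but none touching, the share was 16.7% (arms 13.2 to 19.0). There were 65 runs of 3 or more members, with 231 members in all.

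The largest run, on 3R from 26308927 to 26326160, held 8 members within 17234 bp. They were 507, 943, 1327, 570, 770, 674, 1389 and 503 bp wide in order of position, and the 15 ASH2 peaks of the run, members included, covered 47.4% of it. No H3K4me3, H3K36me3 or polymerase peak lay in it. A single H3K27me3 peak between its last 2 members was the only other mark, and the distance of the members from H3K27me3 went from 15180 bp at the left end to 783 bp at the right. The second, on X from 2189360 to 2202821 (13462 bp), held 6 members of 540 to 1210 bp around 1 Ser5P peak, and ASH2 peaks covered 69.9% of it. The third, on 2L from 18640224 to 18654731 (14508 bp), held 5 members, and the fourth, on 3L from 18000917 to 18008957 (8041 bp), held 5 members over which ASH2 covered 51.0% of the sequence. Neither of these contained a peak of another list. The fifth, on 3R from 24895007 to 24918169 (23163 bp), held 5 members with 1 H3K4me3, 1 Ser2P and 1 Ser5P peak between them.

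**Figure D4:**
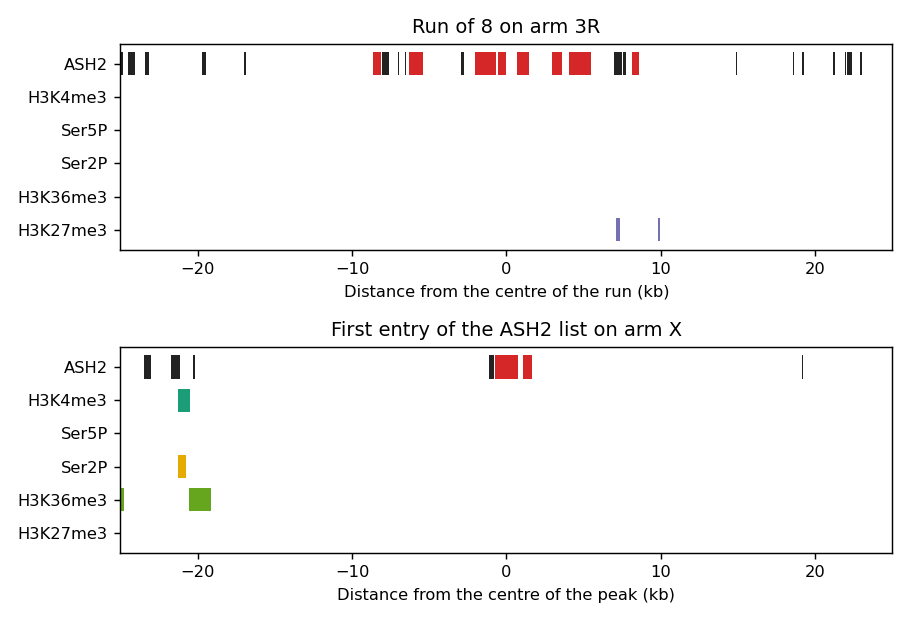
Peaks of the 6 lists (rows) are drawn to scale by distance in kb from the centre of the largest run (top) and of the first entry of the ASH2 list on arm X (bottom), with mark-free wide ASH2 peaks in red and all other peaks in their list's colour. The 8 members of the run stand with a single H3K27me3 peak among them, and the peak on X has no other mark within 18373 bp.

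The ASH2 entries of an arm are unsorted by position and no source says what ranks them, so the place of a peak among its arm's entries was taken as a readout that the rule had not used. Under the rule used, mark-free wide peaks and the other wide peaks had nearly the same median place, but the comparison changed with the rule. The members' median place was 11.7% of the way down the arm's entries (95% interval 11.1 to 12.4, arms 10.4 to 13.4), against 11.6% (11.1 to 12.3, arms 9.96 to 12.4) for the other wide peaks, 18.6% for those in H3K27me3 without an active mark and 51.9% for narrow mark-free peaks. With H3K27me3 left out of the rule the members came later, at 13.5 against 10.5%, and against the wider 50% of the other lists they came earlier, at 9.84 against 13.5%. The first 10% of entries held 42.2% (arms 33.7 to 45.8) of the members and 45.6% (arms 44.2 to 50.1) of the other wide peaks. At the very top the members were fewer, with 20 (1.71%, 95% interval 1.05 to 2.63) in the first 1% against 5.84% of the other wide peaks.

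Place and width go together, so widths were matched. Between 500 and 599 bp, mark-free peaks stood at a median of 15.6% (arms 14.5 to 17.0) and peaks near a mark at 28.3% (arms 25.2 to 31.2), earlier on 5 of 5 arms. Between 600 and 749 bp the medians were 13.5 and 16.5%, with mark-free peaks earlier on 3 arms, and between 750 and 999 bp 8.33 and 11.2%, earlier on 5 arms. From 1000 to 1499 bp they were 4.72% (arms 3.53 to 7.13) and 4.37% (3.94 to 4.89), with mark-free peaks earlier on 2 arms, and from 1500 bp up 2.37 and 1.65%, where mark-free peaks were earlier on none of the 5 arms. Below 500 bp, mark-free peaks came earlier in every width class and on every arm. The class from 1500 bp up holds 25 members and has no upper limit, and the other peaks in it reach 3668 bp against 2623 bp for members. The earlier place of mark-free peaks was thus not seen above 1000 bp.

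**Figure D5:**
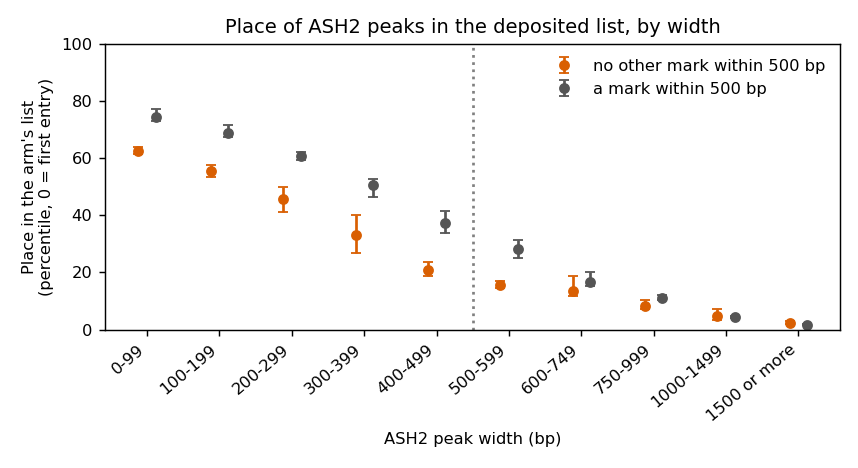
Points give the median place in the arm's ASH2 entries (vertical axis, percentile, 0 at the first entry) for peaks with and without another mark within 500 bp, by width class (horizontal axis, bp), and bars span the lowest and the highest arm. Mark-free peaks have the earlier median up to 999 bp, by 15.6 against 28.3 in the first class to the right of the dotted 500 bp line. From 600 bp up the ranges over the arms overlap, and the groups converge above 1000 bp.

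The earliest member was the first of all entries of the X list, on X from 8187968 to 8189465 (1498 bp), and the peak nearest to it in another list was H3K36me3 at 18373 bp. Singled out after its values were seen, it had H3K4me3 at 19732 bp, H3K27me3 at 27819 bp and Ser5P at 41045 bp, and another member 327 bp away. The fourth entry of 2R, from 3133503 to 3135400 (1898 bp), came next, with Ser5P at 1052 bp. Early places were thus found both near to and far from active marks.

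The members farthest from every mark were not the widest. The farthest, on 3R from 12589523 to 12590230 (708 bp), was 107984 bp from its nearest mark, Ser5P, and 420613 bp from the nearest listed H3K27me3 peak. Second came the peak at 12673336 to 12673849 on 3R (514 bp), which was 85901 bp from Ser2P and came late in the list, at 89.1%. Both lie in the longest stretch without a listed H3K27me3 peak, on 3R from 11996122 to 13010843 (1014722 bp), against 615794 bp for the second longest. That stretch held 26 members among 80 wide ASH2 peaks, with 55 H3K4me3 and 52 Ser5P peaks. Whether H3K27me3 is absent there or its entries are missing from the list was not tested. The 420613 bp is therefore the distance to a listed peak and no measure of the distance to Polycomb chromatin. The third farthest, on 3L from 10021348 to 10021873 (526 bp), was 54274 bp from H3K36me3, and the tenth, on 2L from 9203410 to 9203994 (585 bp), 26627 bp from H3K4me3. Of the 10 farthest, 9 were narrower than 1000 bp, which is near the share over all members, of which 12.1% reached 1000 bp.

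Members were found on every arm, in shares of the wide ASH2 peaks from 16.2 to 21.6%. They made up 18.7% of the wide ASH2 peaks on 2L (220 of 1179, 95% interval 16.5 to 21.0), 16.2% on 2R (190 of 1172, 14.1 to 18.4), 21.6% on 3L (277 of 1281, 19.4 to 24.0), 19.2% on 3R (291 of 1516, 17.2 to 21.3) and 19.1% on X (192 of 1006, 16.7 to 21.7). The intervals of 2R and 3L did not overlap, and those of the other arms overlapped both. Per Mb, 3L had the most, 11.3, and X the fewest, 8.56, with 10.4 on 3R, 9.57 on 2L and 8.99 on 2R. X also had the fewest wide ASH2 peaks of all kinds, 44.9 per Mb against 51.3 to 55.4 elsewhere, and the H3K27me3 list was denser on X (243 peaks per Mb) and 3R (231) than on the other arms (150 to 165). The part of these densities in the arm values was not tested. H3K27me3 was nearest to 46.6% of the members on 3L and 32.7% on 2L.

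Along the arms, members were widespread. Among complete 1 Mb windows, 1 of 22 on 2L and none on the other arms lacked a member, and the median window held 7 to 11.5. The richest window, on 3R from 12000001 to 13000000, held 26 members among 80 wide ASH2 peaks. It lies within the stretch without listed H3K27me3 peaks described above, and whether this bears on the count was not tested. The second longest such stretch, on 2L, held 0 members among 6 wide ASH2 peaks, and the third longest, also on 2L, 6 among 20. With H3K27me3 left out of the rule, 31.8% of all wide ASH2 peaks were mark-free, against 19.0% with it. The richest of 3L, from 18000001 to 19000000, held 21 members among 53 wide ASH2 peaks. Those of 2R, from 1000001 to 2000000, X, from 8000001 to 9000000, and 2L, from 18000001 to 19000000, held 17, 16 and 15 members. They held 67, 49 and 59 wide ASH2 peaks. Each window was picked as the richest of its arm, and over all arms 19.0% of the wide ASH2 peaks were members.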

How the data were processed

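The authors deposited 1 peak list per library with 3 columns, chromosome, start and end, which are positions and other values in bp, not counts, in dm3 per the submitters' processing notes. The lists carry no height, fold or p value. Neither the aligner nor the caller with its settings is named in the sources used here, and input values were not used here. Printed starts are raised by 1 bp so that positions count from 1. Distances are gaps from edge to edge, and touching peaks count as overlapping. Entries of equal start and end (306 in the ASH2 list, 108 in the H3K27me3 list) were kept.

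Peaks were grouped with Python 3.11.15, numpy 2.4.6, pandas 2.3.3 and scipy 1.17.1, and the distance functions were tested on simulated data. Shares have exact (Clopper-Pearson) 95% intervals and medians exact order-statistic intervals, for the counting of peaks only. The threshold of a caller decides how broad regions are cut into pieces, so a stretch between listed H3K27me3 peaks may hold the mark. Arm lengths run to the last listed peak.

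The members and lists were chosen with earlier results of these data known. Named regions were the 10 widest and the 10 farthest members, the 5 largest runs, the 5 peaks on each side of each limit, the 3 domains with the most members (the longest first) and the richest 1 Mb window of each arm, of which those that illustrate a comparison are printed, and the earliest entries were added after seeing the data. A genome of the dm3 build was not used here, so no gene is named, no sequence is printed, and a planned comparison of base composition and motifs was not run. Alternatives were other limits of distance (200, 1000 bp) and width (750 bp), joined ASH2 peaks, stricter lists, lists left out of the rule, other domain gaps and other neighbour definitions.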

Additional observations from a re-analysis of the deposited data

How the results depend on the processing

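Of 64 values recomputed for 8 results, 34 stayed within the main value's interval, its spread over arms or 1.5 times its count, and 30 did not. No paired analysis was possible because each target has 1 library. The number of members (1170) was 1955 with H3K27me3 left out of the rule, 402 at a minimum width of 750 bp and 2522 against the wider 50% of the other lists. With these 3 settings in that order, the share with another member within 10 kb (45.9%) was 55.5, 26.4 and 60.6%, the share in a domain (9.15%) 44.3, 6.47 and 4.0%, and the median place (11.7) 13.5, 6.64 and 9.84. H3K27me3 was nearest to 32.0% against the wider 50% of the lists, in place of 39.3%. A 200 bp limit gave 11.1% in domains and 415 bp to the nearest ASH2 peak, and a 1000 bp limit 4.54% in domains and 41.6% with another member within 10 kb.

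The share in domains was 0% with domain gaps of up to 1000 bp, since a member needs a gap of more than 1500 bp, 22.3% with gaps of up to 10000 bp, 4.87% in domains over 20 kb and 6.57% when each arm kept only its first 140 H3K27me3 entries per Mb. Within 5 and 20 kb, 34.7 and 57.5% had another member. The distance to the nearest ASH2 peak (461 bp) was 625 bp with ASH2 peaks within 200 bp joined, which also put the median place at 14.1, then 408 bp at a width of 750 bp, 1026 bp between midpoints and 2579 bp to peaks of 500 bp or more. Its difference from other wide peaks was small and changed sign between settings. The density on X over the mean of the other arms (0.850) was 0.954 at 750 bp and 1.01 as a share of wide ASH2 peaks. The higher density between active marks than between H3K27me3 peaks stayed at 2.24 to 3.11 times in 4 alternatives added after seeing the data. Leaving out the longest stretch without H3K27me3 gave 1144 members and a density ratio of 3.11, and 5 other results stayed within their intervals, while the arm values were not recomputed without it. The cause of these shifts was otherwise not tested. Depth is unknown, so weak marks near members may be missing from the lists.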
